A study of Arabidopsis thaliana with 6 samples.

Results

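The chloroplast genome loci of Arabidopsis thaliana were followed through 6 RNA sequencing libraries of sorted leaf cells. They are the loci whose identifier begins with ATCG, and all of them were taken, without regard to their values: 133 of the 33602 loci counted. The remaining loci were 146 of the mitochondrial genome and 33323 of the nucleus. Of the 133 chloroplast loci, 92 held enough counts to be tested and 41 did not. The highest count of an untested locus in any library was 104.

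The chloroplast keeps a small genome of its own, present in many copies per cell, that encodes subunits of the photosynthetic complexes, of the plastid ribosome, of an RNA polymerase and of a protease, together with ribosomal and transfer RNAs. Most of its genes lie in clusters that are transcribed together and then cut and trimmed, so the amount of each RNA depends on processing and stability as well as on transcription. The polymerases that read it are helped by sigma factors and associated proteins encoded in the nucleus. The epidermis of the leaf, in which stomata form, holds smaller and fewer chloroplasts than the mesophyll beneath it.

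The libraries came from 3 transgenic lines of the Columbia ecotype, with 2 libraries each. The genotypes are given as myrBRXp:myrBRX-YFP, BRXL2p:BRXL2-YFP and BRXp:BRX-YFP; each name pairs a promoter with a protein fused to the yellow fluorescent protein. BRX and BRXL2 are related plant proteins with roles in cell polarity, and the series describes the cells as stomatal lineage ground cells. Leaves were collected 9 days after germination from plants that had 2 days of cold and then 22 °C with 16 h of light and 8 h of dark. About 20000 sorted cells per sample gave 20 ng of RNA. No untransformed plants were analysed here, so every comparison is between lines that all carry a fusion. Neither the sort gate nor the number of transformants behind a line is stated in the labels.

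Totals were 39085068 and 41096714 counts for myrBRX, 35981786 and 42113178 for BRXL2, and 25817906 and 35490278 for the libraries labelled BRX. The carried genes were checked first. The BRXL2 gene stood at 21.5 and 12.6 CPM (counts after scaling by library size and TMM factor) in myrBRX, 1570 and 1378 in BRXL2 and 150 and 95.5 in the libraries labelled BRX. The BRX gene stood at 32.3 and 72.7 CPM in myrBRX, 22.7 and 31.9 in BRXL2 and 6.10 and 11.7 in the libraries labelled BRX, the lowest of the 6. That order goes against the genotype label, so these libraries are called "labelled BRX" throughout, and each direction below that involves them rests on the label. A single locus held 4.82% to 19.7% of the counts of a library.

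Chloroplast loci took the smallest share of the counts in myrBRX and the largest in the libraries labelled BRX. They held 0.471% and 1.16% of all counts in myrBRX, 1.11% and 1.99% in BRXL2, and 4.12% and 3.06% in the libraries labelled BRX. The means were 0.814 ± 0.486%, 1.55 ± 0.623% and 3.59 ± 0.744% in that order of lines (SD, n = 2). Both libraries labelled BRX lay above the other 4, while the second myrBRX library lay above the first BRXL2 library. Counting error was small beside these differences: the widest 95% exact Clopper-Pearson interval reached 0.00766 percentage points to either side, for counting error alone. In absolute terms the shares stand for 183917 and 475940 chloroplast counts in myrBRX, 397953 and 836771 in BRXL2, and 1062573 and 1087467 in the libraries labelled BRX.

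The ratio of geometric mean shares was 0.208 for myrBRX against the libraries labelled BRX, a log2 ratio of -2.27 (exact permutation test over 4 libraries, two-sided p = 0.333, the smallest this design allows). For BRXL2 against the libraries labelled BRX it was 0.417, a log2 ratio of -1.26, again with the smallest exact permutation p of 0.333. For myrBRX against BRXL2 it was 0.498, a log2 ratio of -1.01, with libraries that overlapped (exact permutation p = 0.667). Across the 3 lines together, 12 of the 90 ways to assign 6 libraries to 3 pairs separated the shares at least as far (exact permutation p = 0.133, smallest possible 0.0667). The ratio between myrBRX and BRXL2 depended on single libraries, at -0.36 without myrBRX library 1 and -1.66 without myrBRX library 2. Within a line the higher share was 2.46 times the lower in myrBRX, 1.80 times in BRXL2 and 1.34 times in the libraries labelled BRX. Shares use raw totals, while CPM also uses TMM factors, which ranged from 0.850 to 1.31. The summed chloroplast CPM was 5535 and 12395 in myrBRX, 8462 and 22399 in BRXL2, and 32425 and 35955 in the libraries labelled BRX. In CPM, library 2 was thus the higher of the libraries labelled BRX, the reverse of their shares.

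**Figure D1:**
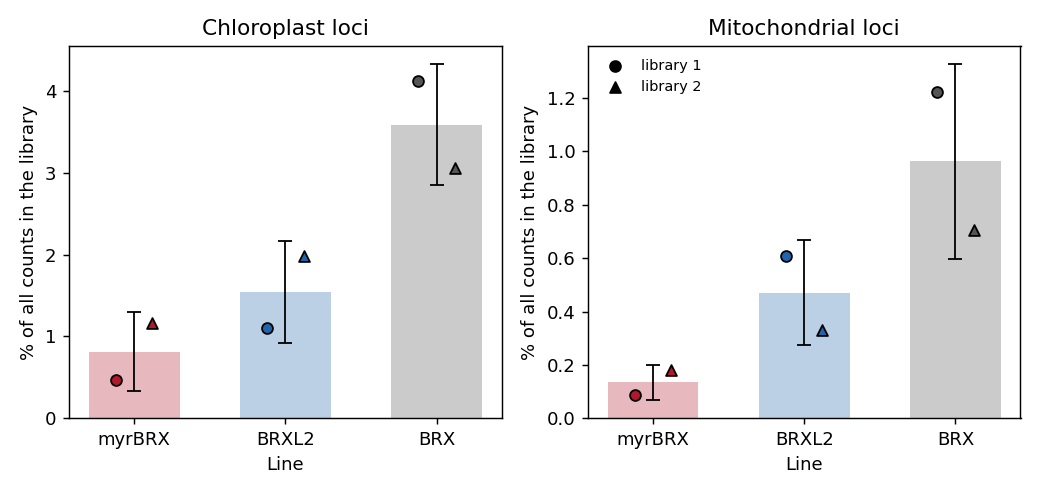
Share of all counts held by chloroplast loci (left) and mitochondrial loci (right), in percent, for the 3 lines; bars are means of 2 libraries, error bars are SD, and circles and triangles are libraries 1 and 2. Chloroplast means were 0.814% in myrBRX, 1.55% in BRXL2 and 3.59% in the libraries labelled BRX, and mitochondrial means followed the same order at 0.134%, 0.470% and 0.963%.

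By line mean, the mitochondrial share followed the same order of lines as the chloroplast share. Within BRXL2, however, the library with the higher chloroplast share had the lower mitochondrial share. Mitochondrial loci held 0.0879% and 0.181% of the counts in myrBRX, 0.609% and 0.330% in BRXL2, and 1.22% and 0.704% in the libraries labelled BRX. Here no library of one line overlapped another line. The quotient of the chloroplast and mitochondrial shares was 5.36 and 6.40 in myrBRX, 1.82 and 6.01 in BRXL2, and 3.37 and 4.35 in the libraries labelled BRX, so it did not follow the order of the chloroplast share.

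Marker genes of the cell types that leaf samples can hold also differed between libraries. Summed over 4 epidermal markers (ATML1, PDF1, PDF2 and FDH), levels were 546 and 764 CPM in myrBRX, 1314 and 879 in BRXL2, and 6193 and 1758 in the libraries labelled BRX. Summed over 5 mesophyll and light harvesting markers, they were 213 and 243 CPM in myrBRX, 702 and 525 in BRXL2, and 907 and 356 in the libraries labelled BRX. RBCS1A made up most of that sum, and without it the other 4 genes summed to 39.2 and 45.3 CPM in myrBRX, 75.3 and 149 in BRXL2, and 58.7 and 36.8 in the libraries labelled BRX. Single markers thus did not all follow the sums, and ATML1 had 107 and 132 CPM in myrBRX, 120 and 90.1 in BRXL2, and 106 and 95.8 in the libraries labelled BRX. The 6 stomatal lineage markers summed to 392 and 206 CPM in myrBRX, 550 and 419 in BRXL2, and 1240 and 489 in the libraries labelled BRX. By line mean, SPCH and BASL followed the order of this sum, while MUTE, FAMA, TMM and POLAR did not. POLAR had 163 and 50.2 CPM in myrBRX, 30.7 and 40.1 in BRXL2, and 741 and 88.3 in the libraries labelled BRX. It thus made up most of the sum in library 1 labelled BRX. MUTE had 0.0903 and 0.0521 CPM in myrBRX, 13.4 and 11.1 in BRXL2, and 0.763 and 0 in the libraries labelled BRX. Phloem markers stood apart: 3 genes summed to 3.10 and 8.36 CPM in myrBRX, 319 and 119 in BRXL2, and 13.4 and 2.78 in the libraries labelled BRX. APL and SEOR1 carried the BRXL2 values, while the third gene, SUC2, had 2.86 and 8.13 CPM in myrBRX, 1.02 and 3.08 in BRXL2, and 10.1 and 2.08 in the libraries labelled BRX. The pair of guard cell markers stayed at or below 10.3 CPM in every library, and KAT1 and HT1 were both at 0 in the second library labelled BRX. The part of these cell types in the chloroplast result was not tested, and in sorted bulk cells fewer chloroplast-rich cells and less chloroplast RNA per cell cannot be told apart.

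Chloroplast loci ranged from 0 to 210593 counts in a library. A total of 22 loci were at 0 in every library and 34 never exceeded 3 counts. At the other end, 21 loci held over 1000 counts in each of the 6 libraries, and 88 had at least 1 count in all of them.

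The loci without counts were concentrated in a pair of stretches of consecutive locus numbers, which were picked out after their values were seen. From ATCG00830 to ATCG01000, 15 of 19 loci never exceeded 3 counts and 9 were at 0 throughout. The highest of that stretch, ATCG00905, had 22 and 24 counts in myrBRX, 11 and 55 in BRXL2, and 102 and 44 in the libraries labelled BRX. From ATCG01140 to ATCG01310, 14 of 18 loci never exceeded 3 counts and 12 were at 0 throughout. Together the 37 loci held 0.0133% of all chloroplast counts, and 4 of them could be tested. Outside these stretches 5 of 96 loci never exceeded 3 counts, 1 was at 0 throughout and 88 could be tested.

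The reference annotation of the chloroplast genome (TAIR10.1, a later build than that of the counts) lists 131 gene entries, with the parts of rps12 counted as separate entries. Of these, 33 have a second copy of identical sequence. These include 7 of 7 ribosomal RNA entries, 14 of 37 transfer RNA entries and 12 of 87 protein-coding entries. The one duplicated gene that could be tied to a counted locus is rpl2, a protein of the large plastid ribosomal subunit, at ATCG01310, the last locus of the second stretch. It had 1 and 4 counts in myrBRX, 2 and 2 in BRXL2, and 5 and 24 in the libraries labelled BRX. No source used here states how the counting treated reads that match both copies of such a gene, so the level of ATCG01310 is uncertain. The reference also lists 31 chloroplast genes that span at most 100 bases, 29 of them transfer RNA genes.

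**Figure D2:**
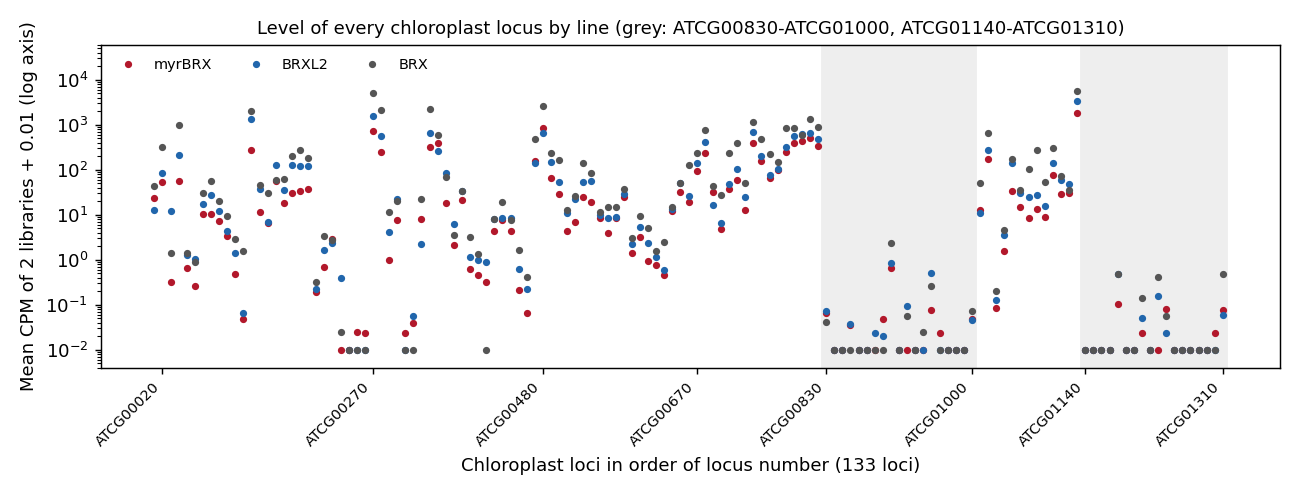
Mean CPM of the 2 libraries of each line for all 133 chloroplast loci in order of locus number, on a log axis after adding 0.01; points at the bottom are loci at 0. Levels are near 0 in both grey stretches, which hold 37 loci, and at 90 of the 92 tested loci the fitted level in myrBRX is below that in the libraries labelled BRX.

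A few loci made up most of the chloroplast counts, and the same locus led in every library. ATCG01130 held 25.5% and 17.8% of the chloroplast counts in myrBRX, 26.7% and 19.6% in BRXL2, and 12.5% and 19.4% in the libraries labelled BRX. The 5 leading loci of a library together held 54.8% and 47.0% in myrBRX, 48.3% and 52.1% in BRXL2, and 48.8% and 58.4% in the libraries labelled BRX. In all, 15 loci were among the 10 leading ones of at least 1 library, and 14 exceeded 1% of the chloroplast counts in all 6. Raw counts rise with the length of a locus, so these shares do not rank the loci by transcript number. The reference ties no gene name to the number of ATCG01130 or of the next 4 loci by mean CPM, and none is given here.

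The leading loci differed in how steady their share was. ATCG00480 held 11.7% and 8.10% of the chloroplast counts in myrBRX, 4.57% and 4.09% in BRXL2, and 5.04% and 10.2% in the libraries labelled BRX. ATCG00270 held 4.30% and 9.74% in myrBRX, 3.12% and 12.7% in BRXL2, and 12.5% and 16.8% in the libraries labelled BRX. For ATCG00120 the shares were 3.52% and 2.91% in myrBRX, 2.79% and 11.04% in BRXL2, and 9.56% and 2.63% in the libraries labelled BRX. BRXL2 and the libraries labelled BRX each contained 1 library with a high and 1 with a low share of ATCG00120, so its spread within a line was as wide as that between lines. ATCG00340 held 1.87% and 4.37% in myrBRX, 5.50% and 3.70% in BRXL2, and 9.25% and 4.27% in the libraries labelled BRX.

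A run of 9 loci with consecutive numbers, ATCG00740 to ATCG00820, was high throughout. The run held 35.6% and 26.4% of the chloroplast counts in myrBRX, 28.0% and 22.7% in BRXL2, and 16.7% and 21.1% in the libraries labelled BRX. The myrBRX and BRXL2 libraries all lay above both libraries labelled BRX, though the lowest of the 4, at 22.7%, lay close to 21.1%. The run was chosen after its values were seen, and no test was made.

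**Figure D3:**
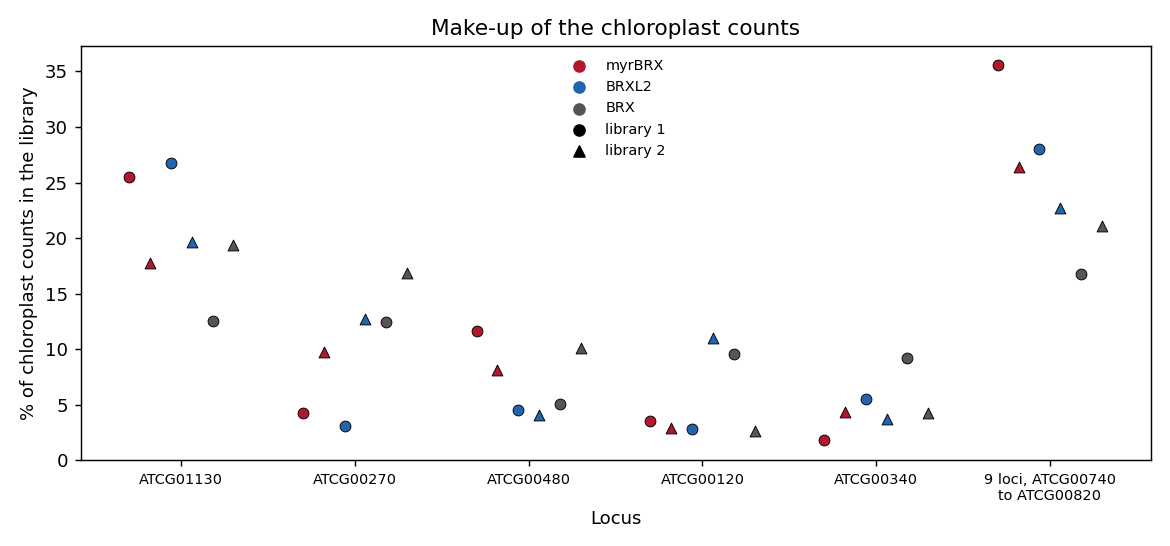
Percent of a library's chloroplast counts held by the 5 loci of highest mean CPM and by the run ATCG00740 to ATCG00820, for 6 libraries; colours give the line, circles and triangles libraries 1 and 2. ATCG01130 leads in every library with 12.5% to 26.7%, and the run of 9 loci is lowest in the libraries labelled BRX at 16.7% and 21.1%.

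Beyond these shifts the order of the loci was alike in all libraries. Across the 92 tested loci, which share a genome and are not independent, Spearman correlations of counts were 0.923 to 0.963 for the 12 pairs of libraries from different lines. For the 3 pairs from the same line they were 0.948 to 0.958, within the range of the others. Loci with consecutive numbers varied more alike than other pairs. Over 66 loci with at least 50 counts in each library, the median correlation of log2 shares over the 6 libraries was 0.399 for 50 consecutive pairs and 0.0792 for 2095 other pairs. It exceeded 0.8 in 22% of the consecutive pairs, against 5.20% of the others. These are descriptions over 6 libraries that share lines and depth, with no test. An example is ATCG00280, at 52.8 and 433 CPM in myrBRX, 119 and 1018 in BRXL2, and 1402 and 2775 in the libraries labelled BRX. Its neighbour ATCG00270 stood at 238 and 1207 CPM in myrBRX, 264 and 2856 in BRXL2, and 4044 and 6057 in the libraries labelled BRX. Within each of the lines library 2 was the higher at both loci, but the summed chloroplast CPM was also higher in library 2 of each line. As a share of the chloroplast counts, ATCG00280 held 0.954% and 3.49% in myrBRX, 1.41% and 4.55% in BRXL2, and 4.32% and 7.72% in the libraries labelled BRX. The shares of ATCG00270, given above, were likewise higher in library 2 of each line. The correlation of this pair, 0.948, lay far above the median of the consecutive pairs.

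The lines were compared locus by locus with edgeR's quasi-likelihood test over all 6 libraries, with p-values adjusted by Benjamini-Hochberg over the 18174 loci tested. None of the 92 chloroplast loci passed an adjusted p of 0.05 in any comparison. Over all loci tested, 0% passed for myrBRX against the libraries labelled BRX, 0.0935% for BRXL2 against the libraries labelled BRX, 0.0495% for myrBRX against BRXL2 and 0.226% for any difference among the 3 lines. An unadjusted p under 0.05 was reached by 27 chloroplast loci for myrBRX against the libraries labelled BRX (29.3%; 14.2% of all loci). The corresponding counts were 7 for BRXL2 against the libraries labelled BRX (8.85% of all loci), 4 for myrBRX against BRXL2 (12.4% of all loci) and 15 for any difference (14.6% of all loci). These counts moved with single libraries. The share over all loci in those fits is not given here, so whether other loci moved alike is not shown. For myrBRX against the libraries labelled BRX the count was 3 without myrBRX library 1 and 14 without library 1 labelled BRX. For BRXL2 against the libraries labelled BRX it was 1 without BRXL2 library 1, 13 without BRXL2 library 2 and 3 without library 1 labelled BRX. For myrBRX against BRXL2 it was 1 without myrBRX library 1, 7 without BRXL2 library 1 and 0 without BRXL2 library 2, and for any difference it was 6 without myrBRX library 1 and 6 without library 1 labelled BRX.

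DESeq2 gave an adjusted p to 86 of the 92 chloroplast loci and made more calls over the whole genome. For myrBRX against the libraries labelled BRX, 13 of the 86 passed an adjusted p of 0.05 (15.1%), against 8.72% of all loci with an adjusted p. None passed for BRXL2 against the libraries labelled BRX, against 3.90% of all loci. For myrBRX against BRXL2, 1 passed, against 6.71%, and for any difference 5 passed, against 8.67%. The number of calls thus depends on the tool.

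Although no single locus passed, the chloroplast loci lay to one side, as their summed share did. The 92 loci are read in the same libraries and each is part of that share, so they are not independent. The counts of loci in this and the other comparisons restate the share and are not further support for it. For myrBRX against the libraries labelled BRX, 90 of the 92 tested loci had a fitted log2 fold change below 0, against 50.7% of all loci tested. Their median was -1.78 (quartiles -2.42 and -1.19), against -0.03 over all loci, with a median SE of 1.00. Both myrBRX libraries lay below both libraries labelled BRX at 68 of the 92 loci, against 22.4% of all loci, and above them at 1, against 26.7%. All 27 loci with an unadjusted p under 0.05 were lower in myrBRX, against 7.1% of all loci in that direction. The median was -2.66 without myrBRX library 2 and -1.32 without myrBRX library 1.

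For BRXL2 against the libraries labelled BRX, 78 of the 92 loci had a fitted log2 fold change below 0, against 49% of all loci. The median was -0.83, against 0.03 over all loci, with a median SE of 0.98. The libraries were separate and lower in BRXL2 at 36 loci, against 14.9% of all loci, and higher at 2, against 18.3%. An unadjusted p under 0.05 was reached by 6 loci lower in BRXL2, against 3.09% of all loci, and by 1 higher, ATCG00410, against 5.77%. Leaving out BRXL2 library 1 gave a median of -0.40, and leaving out BRXL2 library 2 gave -1.87. These loci shared the libraries labelled BRX with the preceding comparison, so the values are not independent of it.

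For myrBRX against BRXL2, 84 of the 92 loci had a fitted log2 fold change below 0, against 53.7% of all loci, and the median was -0.88, against -0.15 over all loci. With the locus at 0 in both myrBRX libraries, ATCG01230, set to its bound, the median was -0.86, and the medians of the other comparisons did not move. The libraries were separate and lower in myrBRX at 23 loci, close to the 24.7% of all loci, and higher at 2, against 24.3%. The 4 loci with an unadjusted p under 0.05 were all lower in myrBRX, against 6.94% of all loci. This median depended on single libraries: without BRXL2 library 2 it was 0.01 and 44 loci lay below 0, and without myrBRX library 1 it was -0.39. It was -1.29 without BRXL2 library 1 and -1.94 without myrBRX library 2.

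**Figure D4:**
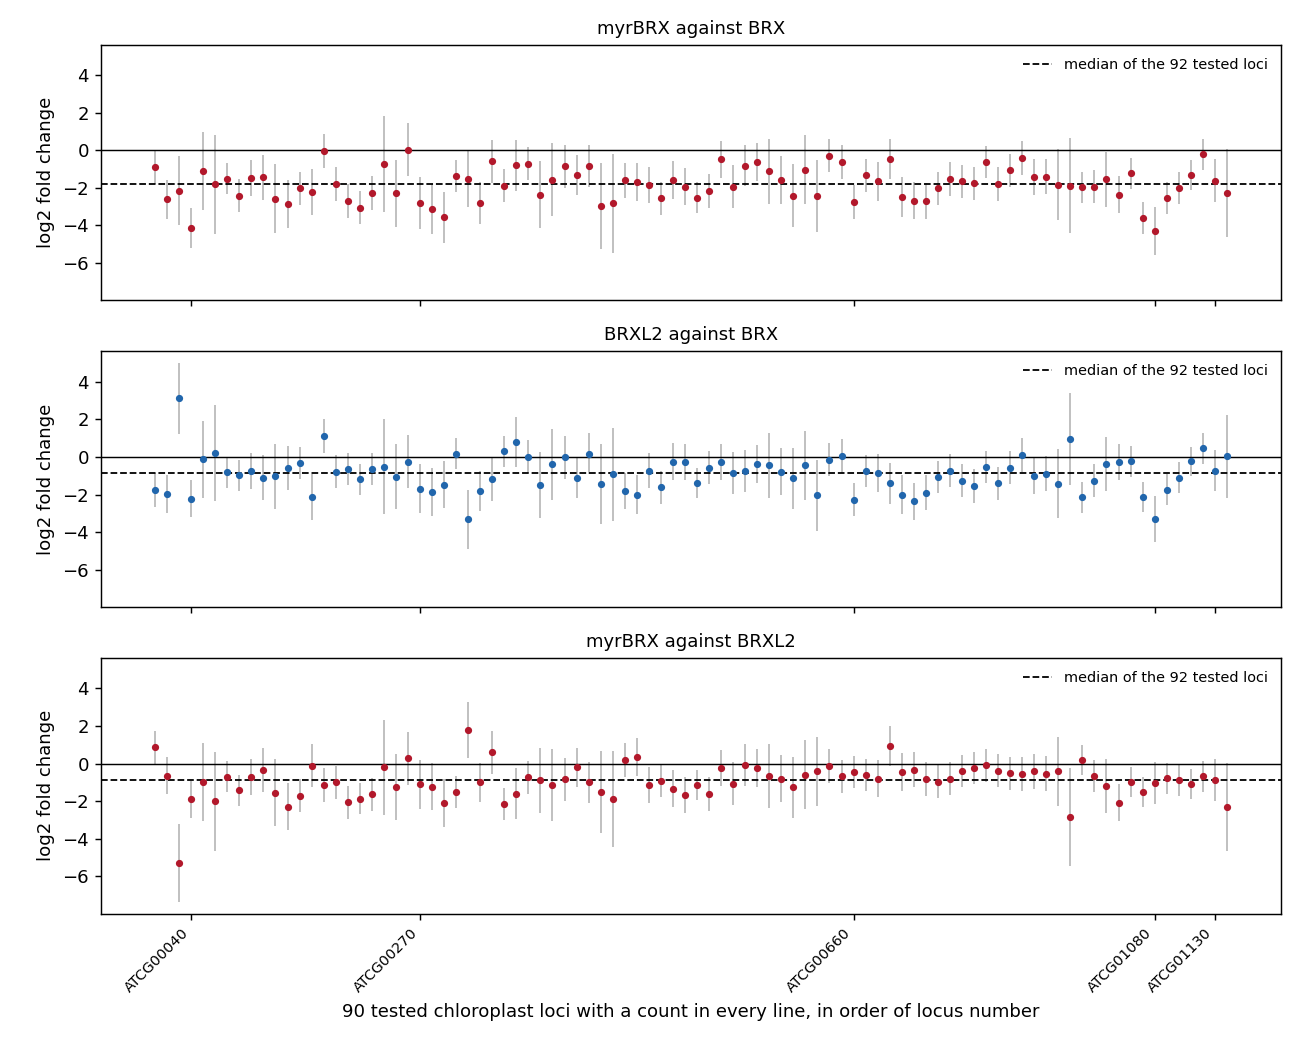
Fitted log2 fold change with its SE (edgeR) for the 90 tested chloroplast loci with a count in every line, in order of locus number, in 3 comparisons; the dashed line is the median of the 92 tested loci. Medians are -1.78 for myrBRX against the libraries labelled BRX, -0.83 for BRXL2 against them and -0.88 for myrBRX against BRXL2, and no locus passes an adjusted p of 0.05.

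The loci with the lowest p for any difference were ATCG01070, ATCG00040, ATCG01080, ATCG00660 and ATCG00180. ATCG01070 had 5.42 and 11.7 CPM in myrBRX, 17.9 and 30.6 in BRXL2, and 123 and 87.2 in the libraries labelled BRX. The 3 lines did not overlap, and each step was in the order of the chloroplast share. Its fitted log2 fold change was -3.62 ± 0.86 for myrBRX against the libraries labelled BRX (SE; edgeR adjusted p = 0.202). For BRXL2 against them it was -2.12 ± 0.80 (edgeR adjusted p = 0.500), and for myrBRX against BRXL2 -1.50 ± 0.79 (edgeR adjusted p = 0.462).

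ATCG00040 had 25.5 and 87.2 CPM in myrBRX, 129 and 295 in BRXL2, and 1290 and 681 in the libraries labelled BRX, again with no overlap between lines. Its log2 fold change for myrBRX against the libraries labelled BRX was -4.13 ± 1.06 (edgeR adjusted p = 0.202). ATCG00180 followed the same order, with 28.0 and 39.3 CPM in myrBRX, 111 and 135 in BRXL2, and 407 and 152 in the libraries labelled BRX. Its log2 fold change was -3.05 ± 0.87 for myrBRX against the libraries labelled BRX (edgeR adjusted p = 0.215) and -1.86 ± 0.83 for myrBRX against BRXL2 (edgeR adjusted p = 0.390). DESeq2 placed all of these loci below 0.05 for myrBRX against the libraries labelled BRX, with an adjusted p of 0.000847 for ATCG01070, 0.000282 for ATCG00040 and 0.00534 for ATCG00180.

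ATCG01080 owed its place to 1 library. It had 7.85 and 19.4 CPM in myrBRX, 9.84 and 45.4 in BRXL2, and 507 and 39.2 in the libraries labelled BRX. The second library labelled BRX lay inside the range of BRXL2. Its log2 fold change of -4.32 ± 1.28 for myrBRX against the libraries labelled BRX (edgeR adjusted p = 0.224) was -1.52 without library 1 labelled BRX, and passed without library 2 labelled BRX (edgeR adjusted p = 0.0401). DESeq2 gave it an adjusted p of 0.00358.

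A gene name is given to 6 loci, whose number the reference annotation cites in a note on a related nuclear gene and whose chloroplast gene was then found by sequence similarity to that nuclear gene. For the others the identifier stands alone. The plastid ribosome comes first. rpl20, a protein of its large subunit at ATCG00660, had 15.2 and 23.4 CPM in myrBRX, 15.5 and 37.5 in BRXL2, and 197 and 60.2 in the libraries labelled BRX. myrBRX and BRXL2 overlapped, and both lay below the libraries labelled BRX. Its log2 fold change was -2.74 ± 0.90 for myrBRX (edgeR adjusted p = 0.253) and -2.28 ± 0.88 for BRXL2 (edgeR adjusted p = 0.512), each against the libraries labelled BRX.

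clpP, the plastid-encoded proteolytic subunit of the Clp protease, is at ATCG00670. It had 48.1 and 136 CPM in myrBRX, 73.9 and 204 in BRXL2, and 198 and 266 in the libraries labelled BRX. The second BRXL2 library lay among the libraries labelled BRX, and the log2 fold change for myrBRX against the libraries labelled BRX was -1.34 ± 0.87 (edgeR adjusted p = 0.488). cemA, which encodes a protein of the chloroplast envelope membrane, is at ATCG00530. It had 14.6 and 34.7 CPM in myrBRX, 38.4 and 70.7 in BRXL2, and 161 and 123 in the libraries labelled BRX. No libraries of different lines overlapped at cemA. Its log2 fold changes were -2.52 ± 0.83 for myrBRX (edgeR adjusted p = 0.254) and -1.38 ± 0.80 for BRXL2 (edgeR adjusted p = 0.651) against the libraries labelled BRX.

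The 2 named genes of the chloroplast NADH dehydrogenase-like complex, which returns electrons to the photosynthetic chain and has further plastid-encoded subunits, had low counts. ndhK, at ATCG00430, had 4.27 and 10.8 CPM in myrBRX, 2.87 and 14.3 in BRXL2, and 12.6 and 24.8 in the libraries labelled BRX. The note on its number uses an older product name, photosystem II reaction center protein G, while the sequence match is to ndhK. ndhJ, at ATCG00420, had 3.19 and 5.63 CPM in myrBRX, 2.32 and 13.5 in BRXL2, and 8.36 and 7.57 in the libraries labelled BRX. At ndhJ the BRXL2 libraries lay on either side of the other 4. The log2 fold change for myrBRX against the libraries labelled BRX was -1.31 ± 1.05 for ndhK (edgeR adjusted p = 0.578) and -0.85 ± 1.16 for ndhJ (edgeR adjusted p = 0.764). For BRXL2 against the libraries labelled BRX, ndhJ gave -0.01 ± 1.15.

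Divided by coding length, so that genes can be set beside each other, mean levels over the 6 libraries were 261 CPM per kb for clpP (591 bases) and 164 for rpl20 (354 bases). They were 107 CPM per kb for cemA (690 bases), 17.1 for ndhK (678 bases) and 14.2 for ndhJ (477 bases). By this mean clpP stood highest of the 5, although in library 1 labelled BRX rpl20 lay above it, at 555 against 335 CPM per kb. The pair of ndh genes stood lowest. The lengths are those of the reference, not of the annotation used for counting.

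**Figure D5:**
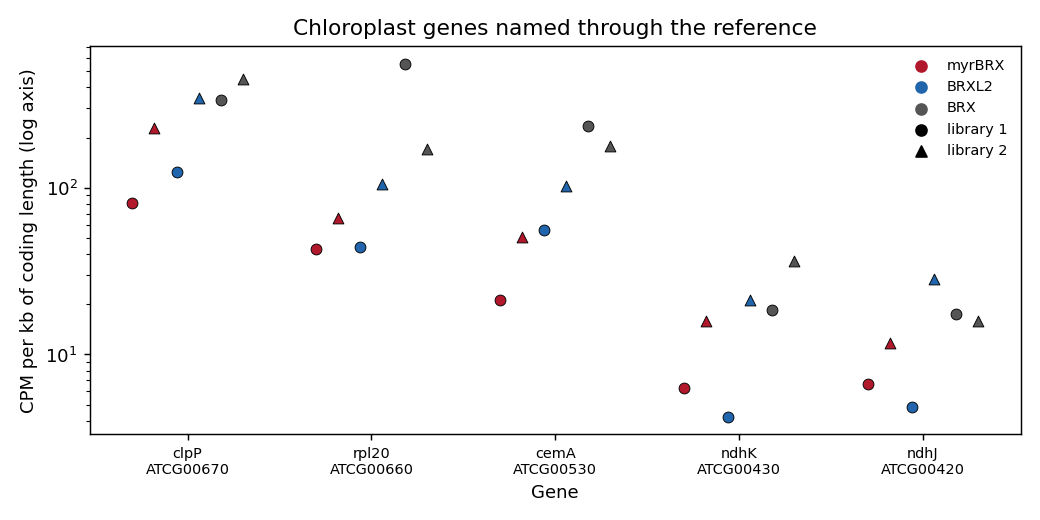
Level of 5 tested chloroplast genes named through the reference, in CPM per kb of coding length on a log axis, in 6 libraries; colours give the line, circles and triangles libraries 1 and 2. Mean levels range from 14.2 for ndhJ to 261 for clpP, and the libraries of the 3 lines do not overlap at cemA.

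The 5 most abundant loci gave large fitted differences with wide errors. ATCG01130 had 1410 and 2201 CPM in myrBRX, 2261 and 4395 in BRXL2, and 4057 and 6963 in the libraries labelled BRX. Its log2 fold change for myrBRX against the libraries labelled BRX was -1.61 ± 1.12 (edgeR adjusted p = 0.516). ATCG00270, whose levels are given above, had -2.81 ± 1.37 in the same comparison (edgeR adjusted p = 0.369). At this locus the libraries of myrBRX and of BRXL2 each differ several-fold among themselves. ATCG00340 had 103 and 542 CPM in myrBRX, 465 and 830 in BRXL2, and 2998 and 1536 in the libraries labelled BRX, with a log2 fold change of -2.81 ± 1.12 (edgeR adjusted p = 0.302). ATCG00120 had 195 and 361 CPM in myrBRX, 236 and 2474 in BRXL2, and 3100 and 946 in the libraries labelled BRX, with -2.86 ± 1.26 (edgeR adjusted p = 0.335). Its value for BRXL2 against the libraries labelled BRX, -0.58 ± 1.18, turned to 0.52 without library 1 labelled BRX.

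ATCG00480 was the abundant locus with another order of lines. It had 645 and 1003 CPM in myrBRX, 386 and 915 in BRXL2, and 1633 and 3651 in the libraries labelled BRX. The myrBRX and BRXL2 libraries overlapped, and the log2 fold change between them was 0.34 ± 1.00 (edgeR adjusted p = 0.923). Against the libraries labelled BRX it was -1.68 ± 1.03 in myrBRX (edgeR adjusted p = 0.458) and -2.02 ± 1.04 in BRXL2 (edgeR adjusted p = 0.599).

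A few loci, given here as examples, departed from the direction of the rest in some comparison. ATCG00410, a locus of low counts singled out after its values were seen, had 8 and 14 counts in myrBRX, 35 and 38 in BRXL2, and 0 and 0 in the libraries labelled BRX. Against a floor of 3 counts per library its level was at least 3.17-fold higher in myrBRX and at least 9.23-fold higher in BRXL2. Its edgeR adjusted p against the libraries labelled BRX was 0.366 for myrBRX and 0.526 for BRXL2. ATCG00150 had 17.8 and 97.1 CPM in myrBRX, 175 and 79.6 in BRXL2, and 57.5 and 59.2 in the libraries labelled BRX. Both BRXL2 libraries exceeded the libraries labelled BRX, with a log2 fold change of 1.13 ± 0.90 (edgeR adjusted p = 0.776). ATCG00030 had 0.150 and 0.469 CPM in myrBRX, 0.0638 and 24.4 in BRXL2, and 1.89 and 0.893 in the libraries labelled BRX. A single BRXL2 library carried it. Its log2 fold change was 3.13 ± 1.88 for BRXL2 against the libraries labelled BRX (edgeR adjusted p = 0.669), opposite in sign to most loci. For myrBRX against BRXL2 it was -5.28 ± 2.09 (edgeR adjusted p = 0.342), the sign of most loci, and 2.23 without BRXL2 library 2.

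To ask whether loci differed once the chloroplast total was set equal, the fit was repeated with library sizes equal to the summed counts of the 133 chloroplast loci, a scaling chosen after the data had been seen. It raised the median log2 fold change of all loci to 2.10, 1.47 and 0.54 in the 3 comparisons taken in the same order as before, by its construction. The chloroplast loci then had medians of 0.11, 0.24 and -0.14, and 45, 36 and 56 of the 92 lay below 0. The same construction centres the chloroplast loci near 0, so this split says nothing about the direction of the chloroplast total. No chloroplast locus passed an adjusted p of 0.05 (edgeR), against 9.52%, 1.89%, 1.16% and, for any difference, 10.1% of all loci, whose median this scaling moves as given above. An unadjusted p under 0.05 was reached by 2, 3, 0 and, for any difference, 1 of them, against 30.1%, 15.2%, 11.9% and 25.7% of all loci. The lowest adjusted p was 0.139, 0.236, 0.463 and, for any difference, 0.166. ATCG01080 had the lowest p for any difference. ATCG00150 had the lowest p for BRXL2 against the libraries labelled BRX, with a log2 fold change of 2.83 ± 1.22: it made up 2.07% and 0.356% of the chloroplast counts in BRXL2 and 0.177% and 0.165% in the libraries labelled BRX.

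Nuclear genes that serve the chloroplast genome were looked at in 3 lists, and none of their members passed in any comparison between lines (edgeR), while DESeq2 called 3 for myrBRX against the libraries labelled BRX, 1 for BRXL2 against them and 1 for myrBRX against BRXL2, beside the DESeq2 shares over all loci given above. The list of plastid transcription, with sigma factors, the phage-type polymerase RPOTp, polymerase-associated proteins and the GLK regulators, had 22 genes, all tested. For myrBRX against the libraries labelled BRX, 16 of the 22 had a fitted log2 fold change below 0, with a median of -1.15, against -0.03 and 50.7% below 0 over all loci tested, and 4 had an unadjusted p under 0.05, against 14.2% of all loci. The medians were -0.42 for BRXL2 against the libraries labelled BRX and -0.42 for myrBRX against BRXL2. Summed over the 22 genes, levels were 201 and 137 CPM in myrBRX, 246 and 240 in BRXL2, and 622 and 204 in the libraries labelled BRX. By this sum library 2 labelled BRX lay close to the first myrBRX library and below both BRXL2 libraries. The members of this list with the lowest p were PTAC7 and PTAC12, both components of the plastid transcription complex. PTAC12 had 7.40 and 5.94 CPM in myrBRX, 30.8 and 8.73 in BRXL2, and 77.4 and 18.6 in the libraries labelled BRX, with a log2 fold change of -2.85 ± 0.99 for myrBRX against the libraries labelled BRX (edgeR adjusted p = 0.267). PTAC7 was high in 1 library, at 48.4 CPM in library 1 labelled BRX, and between 0.421 and 1.06 CPM in the other 5.

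The list of plastid RNA stability held 12 genes, all tested, whose proteins act on chloroplast transcripts. Its median log2 fold change was -0.61 for myrBRX against the libraries labelled BRX, -0.32 for BRXL2 against them and -0.47 for myrBRX against BRXL2, and no gene had an unadjusted p under 0.05. PGR3, a pentatricopeptide repeat protein, had 18.2 and 12.03 CPM in myrBRX, 38.7 and 44.8 in BRXL2, and 20.4 and 17.7 in the libraries labelled BRX. The BRXL2 libraries lay above the rest. CP29, a chloroplast RNA-binding protein, had 29.0 and 37.6 CPM in myrBRX, 27.3 and 63.8 in BRXL2, and 92.6 and 83.3 in the libraries labelled BRX. Its line means were in the order of the chloroplast share, while the myrBRX and BRXL2 libraries overlapped. Its log2 fold change for myrBRX against the libraries labelled BRX was -1.40 ± 0.78 (edgeR adjusted p = 0.422).

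The third list held 16 nuclear genes for subunits of the complexes that the chloroplast genome also encodes, of which 15 could be tested. Its median was -0.78 for myrBRX against the libraries labelled BRX, 0.28 for BRXL2 against them and -1.24 for myrBRX against BRXL2. In the second of these the median of all loci was 0.03, and 9 of the 15 genes had a fitted value above 0. RBCS2B, one of several near-identical genes for the small subunit of Rubisco, had 172 and 183 CPM in myrBRX, 13.5 and 119 in BRXL2, and 1.34 and 34.2 in the libraries labelled BRX. That order is the reverse of the chloroplast share, with a log2 fold change of 3.32 ± 1.35 for myrBRX against the libraries labelled BRX (edgeR adjusted p = 0.311), and reads may be divided among the paralogs. RBCS1A, a paralog that also stands in the mesophyll list, had 174 and 198 CPM in myrBRX, 627 and 376 in BRXL2, and 849 and 319 in the libraries labelled BRX. NDHO, a nuclear subunit of the NADH dehydrogenase-like complex, had 0.0602 and 0 CPM in myrBRX, 4.10 and 4.44 in BRXL2, and 0.977 and 0 in the libraries labelled BRX. BRXL2 was the one line with counts of NDHO in both libraries.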

How the data were processed

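RNA from about 20000 sorted cells per sample was amplified with the Ovation system, per the labels' protocols. The deposited values are raw counts per locus, 1 table per library; the unit was read from the values. Bowtie2 and the TAIR10 build are named in the submitters' processing notes. Neither strand setting, counter nor handling of reads with several matches is stated in the labels. Overlapping and antisense transcripts can therefore share counts.

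Samples were grouped by genotype label. Members were the loci whose identifier starts with ATCG; the members and gene lists were chosen with earlier results of these data known. Loci were filtered with filterByExpr (minimum 10 counts), scaled with TMM and tested with edgeR 4.0.16 (R 4.3.3; quasi-likelihood, two-sided, all 6 libraries, 3 residual degrees of freedom) at an adjusted p of 0.05. The common dispersion was 0.781. CPM used TMM-scaled library sizes, and SE is the absolute log2 fold change over the square root of F. The script was tested on simulated data. No label ties the libraries to separate cultures, so p-values measure only the spread between libraries, possibly a technical one. The libraries of a line were not copies, with a chi-square per chloroplast locus of 420 to 2174. Amplified reads are not independent molecules, so intervals and floors (3 counts) cover counting error only.

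Depth ranged from 25817906 to 42113178 counts. Gene names came from notes in the reference annotation (TAIR10.1), joined to chloroplast genes with BLAST 2.17.0; no coordinates or sequences are printed because the builds differ. The planned naming by class of gene could not be applied, since the reference carries no ATCG numbers for the other loci. Named instead were 6 loci tied to a gene, the 5 of highest mean CPM, the 5 of lowest p for any difference and the 3 of lowest p within the chloroplast total; values of rbcL, psbA, psaA, rpoB and accD, and 1 further locus, are not reported here. Any other locus was named after its values were seen. Of the nuclear lists the 2 members of lowest p were named. RPOTmp, RNJ and GC1 were left out because no reference symbol was matched to them, while others were matched under another reference symbol (such as SCA3 for RPOTp). Alternatives covered scaling, filters, DESeq2 1.42.0, the compared lines alone, a replicate block and leaving out each library.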

Additional observations from a re-analysis of the deposited data

How the results depend on the processing

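The shares of chloroplast counts kept their direction under every alternative run, among them nuclear counts as the denominator and a total without the most abundant locus. Leaving out 1 library gave log2 ratios of -2.92 to -1.62 for myrBRX against the libraries labelled BRX, -1.68 to -0.84 for BRXL2 against them and -1.66 to -0.36 for myrBRX against BRXL2. The count of chloroplast loci called with edgeR, 0 in each comparison, was 3 for myrBRX and 1 for BRXL2, each against the libraries labelled BRX, and 5 for any difference with no filter on low counts. With DESeq2 it was 13 for myrBRX against the libraries labelled BRX, 1 for myrBRX against BRXL2 and 5 for any difference. Leaving out 1 library gave 0 to 1 for myrBRX against the libraries labelled BRX (1 without library 2 labelled BRX) and 0 to 2 for any difference (2 without myrBRX library 2). For the nuclear lists it was 2 for myrBRX and 2 for BRXL2, each against the libraries labelled BRX, and 3 for any difference with no filter. With DESeq2 it was 3 and 1 in those comparisons, 1 for myrBRX against BRXL2 and 1 for any difference. Leaving out 1 library gave 0 to 1 for myrBRX against the libraries labelled BRX and 0 to 2 for any difference. For the fits with no filter and those leaving out 1 library, the share of calls over all loci is not given here. Their counts are therefore not read as a result about the chloroplast loci or the nuclear lists. A line left with 1 library was assumed to vary like the others. The causes were not tested.

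Of the values of single named loci over the comparisons and alternatives, 637 kept their direction and side of the threshold, 13 newly passed it and 22 turned in sign. For myrBRX against BRXL2 the ranges with 1 library left out were -6.32 to 2.23 for ATCG00030, -3.15 to 0.24 for ATCG00120, -2.72 to 1.46 for ATCG00270, -1.62 to 0.93 for ATCG00420, -1.02 to 1.40 for ATCG00430, -0.15 to 1.102 for ATCG00480, -0.96 to 0.32 for ATCG00660, -1.54 to 0.32 for ATCG00670 and -1.82 to 0.48 for ATCG01080. For BRXL2 against the libraries labelled BRX they were -4.38 to 4.13 for ATCG00030, -3.10 to 0.52 for ATCG00120 and -1.78 to 0.77 for ATCG00420, and for myrBRX against the libraries labelled BRX -1.71 to 0.74 for ATCG00150. ATCG00420 also turned to 0.00019 with no filter and 0.00088 in a fit of the compared lines alone, for BRXL2 against the libraries labelled BRX.

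Libraries with the same number deviated together only weakly in each pair of lines. The correlation of deviations over loci was 0.128 between myrBRX and BRXL2, 0.0672 between myrBRX and the libraries labelled BRX, and 0.172 between BRXL2 and them. The labels give the number no meaning. A fit with the replicate number as a block called 0 chloroplast loci in each comparison and turned ATCG00430 to 0.032 for myrBRX against BRXL2. It raised the number of chloroplast loci with an unadjusted p under 0.05 (edgeR). That number went from 27 to 32 for myrBRX and from 7 to 17 for BRXL2, each against the libraries labelled BRX. It went from 4 to 5 for myrBRX against BRXL2 and from 15 to 26 for any difference. The share over all loci in this fit is not given here. Scaling to single-copy protein-coding chloroplast loci, the share of protein-coding loci and the share without duplicated loci were not run, because the loci could not be told apart by name. The 41 chloroplast loci with too few counts were not tested.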
